A study of Mus musculus with 12 samples.

Results

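Described here are 36 mouse genes of the NF-kB pathway and of the inflammatory mediators it controls, followed across bone marrow cells with and without a leukaemia fusion gene and with and without sPrdm16. The genes were listed by name and role, with earlier results of these data known, and each matched 1 row of the 55487 in the deposited count tables. By role they were 5 NF-kB subunits, 6 inhibitors, 6 other target genes, 7 inflammasome genes with the NOD sensors, 7 cytokines, 3 chemokines and 2 blockers of IL-1. Per the labels, all 12 libraries came from mouse bone marrow cells that had received a retrovirus. The MA9 cells carried a retroviral MLL::AF9 vector, which is a fusion of the chromatin regulator MLL with AF9 that causes acute myeloid leukaemia, and the WT cells did not. Within each genotype a further retrovirus either expressed sPrdm16, as the labels call a construct of the zinc-finger regulator Prdm16, or was a mock vector. The 4 groups were thus MA9 sPrdm16, MA9 mock, WT sPrdm16 and WT mock, with 3 libraries each. The growth medium in the labels, RPMI with serum and 5 ng/ml mouse IL-3, names the MA9 cells alone. The culture of the WT cells, the strain, sex and age of the mice and the cells that the vectors' promoters are active in are not stated in the labels. The stated purpose of the series was to find what lies behind chemoresistance driven by sPrdm16.

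NF-kB is a family of dimeric transcription factors that inhibitors of the IkB family hold in the cytoplasm. When a cell senses microbial products, TNF or IL-1, the IKK kinase marks IkB for destruction, the dimers enter the nucleus, and they switch on cytokines, chemokines and their own inhibitors, so that the response is shut off again. Inflammasomes are complexes that activate caspase-1, which matures IL-1 beta and IL-18 and cuts gasdermin D to open pores in the cell membrane. Myeloid cells are a main source of these mediators in bone marrow and blood.

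Total counts ranged from 17217123 to 37390897 per library, of which the 36 genes together took 3457 to 47725. These were 0.0856% to 0.0878% of the counts of nuclear protein-coding genes in MA9 sPrdm16 and 0.0853% to 0.0899% in MA9 mock. In WT sPrdm16 they were 0.252% to 0.257%, and in WT mock 0.274% to 0.280%. Nuclear protein-coding genes held 75.5% ± 0.168 of all counts in MA9 sPrdm16 and 28.2% ± 8.64 in MA9 mock (SD, n = 3 each), and 93.9% ± 0.655 in WT sPrdm16 and 92.5% ± 1.02 in WT mock. Mitochondrial ribosomal RNA took 10.9% to 11.2% of the counts in MA9 sPrdm16 and 36.8% to 48.4% in MA9 mock. MA9 mock replicate 3 stood apart, with 3844571 nuclear protein-coding counts and a chi-square per gene of 124 and 101 against the other MA9 mock libraries, which differed from each other by 22.6. Prdm16 itself had 134, 143 and 143 CPM (normalized counts, scaled within each genotype to libraries of equal size) in the MA9 sPrdm16 libraries, against no count in the MA9 mock libraries. It had 47.2, 38.5 and 44.0 CPM in the WT sPrdm16 libraries, against 1.26, 1.05 and 0 CPM in the WT mock libraries.

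A gene rose or fell here where edgeR's quasi-likelihood test, with p-values adjusted by Benjamini and Hochberg over all genes tested, passed a threshold of 0.05. In MA9 cells 27 of the 36 genes had enough counts to be tested. With sPrdm16, 4 of the 27 fell (Nfkb1, Nlrp3, Tnf and Il1rn) and 4 rose (Nfkbia, Nod1, Pycard and Gsdmd), which is 29.6%, against 34.6% of all 14394 genes tested in MA9 (17.5% fell and 17.1% rose). The median log2 fold change was -0.08 over these 27 genes and 0.03 over all genes tested. In WT cells 33 were tested, of which 14 fell and 4 rose, which is 54.5%, against 34.1% of all 14063 genes tested there (16.6% fell and 17.5% rose). The falls in WT took in the feedback inhibitors Nfkbia, Nfkbiz and Tnfaip3, the cytokines Il6, Il1a, Il1b and Osm and the chemokines Cxcl2 and Cxcl3. The median was -0.32 over the 33 genes and 0.01 over all genes. The share called in MA9 was thus near that of all genes, and the share that fell in WT was above it. These counts are a description of the list and not a test of it. The 2 genotypes' shares rest on different genes. Of the WT calls, 4 falls (Il1a, Il6, Cxcl2 and Cxcl3) and 1 rise (Cd40) were of genes not tested in MA9. Cxcl3 and Cd40 had few counts in the lower of their 2 WT groups. Bulk RNA was read, so fewer cells of a type and less RNA per cell cannot be told apart.

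Cell type markers moved with the same contrasts. In MA9, eosinophil markers summed to 12.2 to 14.3 CPM with sPrdm16, against 101 to 151 CPM in mock (5 of 6 tested fell), on the scale of all 12 libraries. Monocyte and macrophage markers in MA9 summed to 1105 to 1140 CPM with sPrdm16, against 899 to 1326 CPM in mock. Of 10 tested 7 fell and 2 rose. Neutrophil markers there summed to 2563 to 2662 CPM with sPrdm16, against 2137 to 2615 CPM in mock, and of 11 tested 2 rose and 5 fell. The mast cell and basophil markers there summed to 108 to 115 CPM with sPrdm16, against 185 to 191 CPM in mock (1 of 4 tested fell), and 7 of the 12, Cpa3 and Fcer1a among them, were at 0 in both MA9 groups. Stromal and endothelial markers in MA9 summed to 80.8 to 84.9 CPM with sPrdm16, against 18.9 to 21.5 CPM in mock, and 2 of 3 tested rose. In WT, the 12 neutrophil markers summed to 5222 to 5522 CPM with sPrdm16, against 20302 to 25141 CPM in mock. Of these 9 fell and 2 rose. The mast cell and basophil markers summed to 475 to 518 CPM with sPrdm16, against 4506 to 5008 CPM in WT mock. Of 11 tested 10 fell and 1 rose. Monocyte and macrophage markers summed to 18998 to 19665 CPM with sPrdm16, against 21481 to 24039 CPM in WT mock (of 11, 7 fell and 1 rose). Eosinophil markers in WT summed to 12.8 to 17.8 CPM with sPrdm16, against 223 to 256 CPM in mock. Lymphocyte markers in WT summed to 4.89 to 7.32 CPM with sPrdm16, against 0.414 to 1.79 CPM in mock (1 of 2 tested rose), and in MA9 to 0.807 to 1.58 CPM with sPrdm16, against 0.648 to 1.0 CPM in mock. Stromal and endothelial markers in WT summed to 74.7 to 91.7 CPM with sPrdm16, against 57.2 to 60.3 CPM in mock (1 of 3 tested rose and 1 fell). The part of these cell types in the results that follow was not tested.

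The direction of a change in MA9 depends on the scale. With total counts in place of TMM scaling factors, the median log2 value of all genes lay at 1.43 in MA9, at 0.18 in WT and at 1.21 in the difference between them, against 0.03, 0.01 and 0.08 with TMM. Of the calls, 49.3% were rises in MA9 with TMM, 95.0% with total counts and 59.5% with 1 fit over all 12 libraries. In WT 51.3% were rises with TMM and 71.0% with total counts. Rises and falls in MA9 are therefore relative to the median gene, and with total counts 13 of the 27 members tested lay on the other side of 0 there, all of them from below to above. None of the 4 members that rose in MA9 and none of the 18 called in WT changed side. Total counts moved all genes of a comparison by about the same amount. A total-count value below the all-gene median thus restates the TMM result and is no further support for it.

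**Figure D1:**
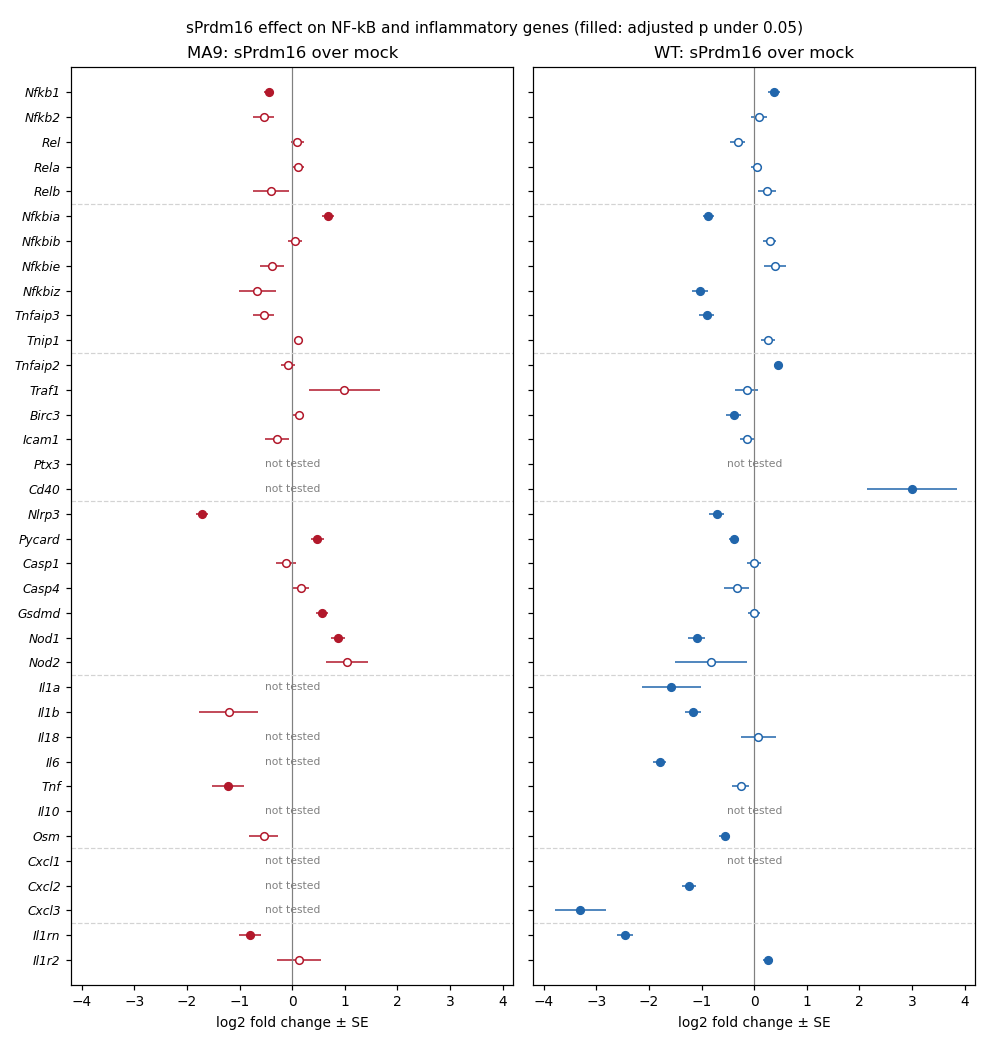
Log2 fold change of sPrdm16 over mock for each of the 36 genes, with its SE, in MA9 (left) and WT (right), in order of role with dashed lines between roles. Filled points passed an adjusted p of 0.05. The falls of Il6, Cxcl3 and Il1rn in WT are the largest to the left of 0, and Nfkbia, Pycard and Nod1 lie right of 0 in MA9 and left of 0 in WT.

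For 6 of the genes the DNA before the start site is shown, because it holds a match to the NF-kB consensus (the kB motif). These are Il6, Cxcl2, Cxcl3 and the inhibitors Nfkbia and Tnfaip3, all of which fell in WT, with Cxcl1 as the close copy of the other chemokines. The sequences are RefSeq's, build GRCm38.p6, the 150 bases before the annotated start, read 5′ to 3′ on the gene's strand, and capitals mark the match or overlapping matches. Cxcl1, Cxcl2 and Cxcl3 are genes near each other on chromosome 5 for chemokines that draw in neutrophils.
Cxcl1, chr5:90891095-90891244, + strand: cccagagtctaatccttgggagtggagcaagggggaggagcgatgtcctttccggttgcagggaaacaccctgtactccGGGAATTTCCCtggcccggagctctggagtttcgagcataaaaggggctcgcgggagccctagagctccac
Cxcl2, chr5:90903749-90903898, + strand: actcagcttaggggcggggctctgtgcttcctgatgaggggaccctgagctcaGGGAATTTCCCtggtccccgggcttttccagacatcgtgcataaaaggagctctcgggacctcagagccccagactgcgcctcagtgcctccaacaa
Cxcl3, chr5:90785951-90786100, + strand: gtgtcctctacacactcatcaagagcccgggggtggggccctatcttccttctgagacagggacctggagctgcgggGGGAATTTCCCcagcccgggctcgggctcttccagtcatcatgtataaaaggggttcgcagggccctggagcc
Il6, chr5:30012964-30013113, + strand: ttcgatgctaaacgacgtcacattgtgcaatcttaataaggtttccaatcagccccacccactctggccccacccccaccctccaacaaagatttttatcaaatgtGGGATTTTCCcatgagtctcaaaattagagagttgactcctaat
Nfkbia, chr12:55492648-55492797, - strand: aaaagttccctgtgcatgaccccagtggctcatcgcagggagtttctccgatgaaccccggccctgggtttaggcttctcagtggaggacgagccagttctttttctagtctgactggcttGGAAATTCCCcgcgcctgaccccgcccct
Tnfaip3, chr10:19015411-19015560, - strand: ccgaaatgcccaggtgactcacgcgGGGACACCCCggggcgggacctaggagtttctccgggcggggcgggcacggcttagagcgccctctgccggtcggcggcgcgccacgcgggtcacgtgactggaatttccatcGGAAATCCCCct
The match began 71 bases before the start in Cxcl1, 97 in Cxcl2 and 73 in Cxcl3, and all 3 read GGGAATTTCCC, which holds 1 match on each strand. In Il6 it began 44 bases before the start, and in Nfkbia 29 bases before it, on the opposite strand. Tnfaip3 had matches 125 and 12 bases before the start used here, and a second annotated start had none.

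The kB motif was searched on both strands, with overlapping matches counted, in windows of 250 bases before to 50 bases after each RefSeq start. It was found in 4.51% of all 32851 windows and in 5.14% of the 27025 genes with a window. Of the 36 genes 29 had a window, and 13 of these had a match, namely the 6 above with Casp4, Nfkb2, Nfkbie, Nlrp3, Ptx3, Rel and Tnip1. Of the genes that fell in WT and had a window, 6 of 12 had a match, against 5 of 13 that were tested and not called and 0 of 2 that rose. Genes with a match thus stood among those that fell and those not called alike. A match describes the letters of the window and does not show binding.

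Among the 5 NF-kB subunits, Nfkb1 alone passed the test in either genotype. The share called was 20% in MA9, against 34.6% of all genes, and 20% in WT, against 34.1%. With TMM scaling Nfkb1 moved in opposite directions. Nfkb1 (chr3:135584655-135691547, mm10, - strand) encodes the precursor of a DNA-binding subunit that has no activation domain of its own. It had 42.0, 41.7 and 42.1 CPM in the MA9 sPrdm16 libraries, against 62.9, 53.7 and 54.9 CPM in the MA9 mock libraries. It had 116, 93.9 and 119 CPM in the WT sPrdm16 libraries, against 77.9, 92.6 and 84.2 CPM in the WT mock libraries. Each sPrdm16 library was below every mock library in MA9, and above every mock library in WT. Nfkb1 fell by 0.45 ± 0.08 on the log2 scale (adjusted p = 0.00231) in MA9, and it rose by 0.37 ± 0.11 on the log2 scale (adjusted p = 0.0207) in WT. The WT call ended without mock replicate 1 (adjusted p = 0.0757), without sPrdm16 replicate 1 (0.0875) and without sPrdm16 replicate 3 (0.0923). With total counts Nfkb1 passed above 0 in both genotypes, at 0.95 in MA9 (adjusted p = 0.00475) and 0.54 in WT (0.00166). The all-gene medians there were 1.43 and 0.18. On that scale the difference between genotypes, 0.41, did not pass (0.312).

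The other subunits did not pass the test. Nfkb2, the precursor subunit of the non-canonical branch, had 4.07, 5.53 and 6.20 CPM with sPrdm16, against 7.08, 8.0 and 7.91 CPM in MA9 mock, and the groups did not overlap, but the adjusted p was 0.0647 at a log2 fold change of -0.54. Its level in WT was 35.5, 39.0 and 36.7 CPM with sPrdm16, against 37.4, 38.6 and 28.2 CPM in mock, with overlap (adjusted p = 0.664). In MA9 Nfkb2 passed with nuclear protein-coding genes alone (0.0428), with a filter of 5 CPM (0.0441) and with limma-voom (0.045). Its reads cannot be told apart by strand from those of 4833438C02Rik, an opposite-strand RNA with 1332 counts over all libraries, against 4968 for Nfkb2.

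Rela, the main activating subunit, had 25.5, 20.2 and 22.9 CPM with sPrdm16 in MA9, against 19.5, 22.0 and 22.1 CPM in MA9 mock, and 113, 107 and 94.7 CPM in WT libraries with sPrdm16, against 107, 98.5 and 101 CPM in WT mock. Its groups overlapped in both genotypes, at log2 fold changes of 0.11 ± 0.12 in MA9 and 0.04 ± 0.10 in WT (SE). Rel, the activating subunit known from lymphoid and myeloid cells, had 14.0, 16.7 and 14.7 CPM in MA9 libraries with sPrdm16, against 13.7, 13.2 and 15.8 CPM in MA9 mock. WT libraries had 36.1, 26.9 and 29.4 CPM with sPrdm16, against 34.9, 38.2 and 42.3 CPM in mock (adjusted p = 0.12). Both pairs of groups overlapped. Relb, the partner of the Nfkb2 product, had 1.01, 1.60 and 1.55 CPM in MA9 libraries with sPrdm16, against 1.96, 2.01 and 1.46 CPM in MA9 mock. It had 26.2, 27.98 and 25.9 CPM in WT libraries with sPrdm16, against 18.4, 22.0 and 27.1 CPM in WT mock, again with overlap in both genotypes.

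Per length of transcript, the subunits stood in a different order in the 2 genotypes. On the scale of all 12 libraries and per kb of the longest coding transcript, MA9 mock had 16.7 ± 1.58 CPM per kb of Nfkb1, 9.37 ± 0.600 of Rela, 2.39 ± 0.148 of Nfkb2, 2.29 ± 0.187 of Rel and 0.986 ± 0.180 of Relb (SD, n = 3). Nfkb2 and Rel did not differ beyond their spread. In WT mock, Rela led with 30.2 ± 1.12 CPM per kb, followed by Nfkb1 with 16.6 ± 1.49, Relb with 8.20 ± 1.60, Nfkb2 with 7.26 ± 1.19 and Rel with 4.14 ± 0.410, and there Relb and Nfkb2 were within their spread.

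Of the 6 inhibitors, 1 rose in MA9 and none fell, while in WT 3 fell and none rose. The share called was 16.7% in MA9, against 34.6% of all genes, and 50% in WT, against 34.1%. Nfkbia (chr12:55489410-55492647, mm10, - strand) encodes IkB alpha, the inhibitor that NF-kB itself switches on, whose mRNA is used as a readout of NF-kB activity. In MA9 it had 39.0, 36.1 and 35.7 CPM with sPrdm16, against 26.7, 21.3 and 20.4 CPM in mock. It had 202, 216 and 247 CPM in the WT sPrdm16 libraries, against 400.2, 451 and 366 CPM in the WT mock libraries. The MA9 sPrdm16 libraries were all above, and the WT sPrdm16 libraries all below, their mock libraries. Nfkbia rose by 0.68 ± 0.11 on the log2 scale (adjusted p = 0.00147) in MA9 and fell by 0.87 ± 0.10 on the log2 scale (adjusted p = 1.25e-05) in WT. Both calls passed in every alternative run, total counts and each left-out library included.

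Tnfaip3 (chr10:19000910-19015657, mm10, - strand) encodes the ubiquitin-editing enzyme that stops signalling to IKK. In MA9 it had 3.51, 3.38 and 3.34 CPM with sPrdm16, against 4.40, 5.74 and 4.74 CPM in mock. These groups did not overlap, and the log2 fold change of -0.54 missed the threshold (adjusted p = 0.0691). It passed without mock replicate 1 (0.0375) or 3 (0.0461), with nuclear protein-coding genes alone (0.0445), with a filter of 5 CPM (0.0361) and with limma-voom (0.047). In WT, Tnfaip3 had 19.6, 19.6 and 21.01 CPM with sPrdm16, against 39.2, 39.4 and 34.2 CPM in mock, with no overlap, and fell by 0.91 ± 0.14 on the log2 scale (adjusted p = 0.000232). Nfkbiz encodes a nuclear IkB protein that is needed for the induction of Il6 and other secondary genes. It was low in MA9, with 0.936, 1.36 and 1.07 CPM with sPrdm16, against 2.02, 1.53 and 1.82 CPM in mock (adjusted p = 0.175). In WT it had 18.8, 21.8 and 18.8 CPM with sPrdm16, against 43.5, 37.9 and 39.7 CPM in mock, with no overlap, and fell by 1.03 ± 0.15 on the log2 scale (adjusted p = 8.21e-05).

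Nfkbib and Nfkbie, further IkB proteins, and Tnip1, a partner of the Tnfaip3 product, did not pass the test in either genotype. Their log2 fold changes lay between -0.39 and 0.11 in MA9 and between 0.26 and 0.39 in WT. In WT the sPrdm16 libraries were all above mock for Nfkbib and Tnip1. With total counts all 3 passed above 0 in WT, where the all-gene median was 0.18. The values were 0.47 for Nfkbib (adjusted p = 0.00749), 0.57 for Nfkbie (0.0431) and 0.44 for Tnip1 (0.0177). Nfkbie passed in WT without mock replicate 1 (0.67, adjusted p = 0.0153), and in the difference between genotypes without the same library (-0.96, adjusted p = 0.0213). Nfkbib overlaps Sirt2 on the opposite strand, whose 11545 counts over all libraries exceeded the 6600 of Nfkbib, and without a recorded strand the reads of the overlap cannot be told apart.

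**Figure D2:**
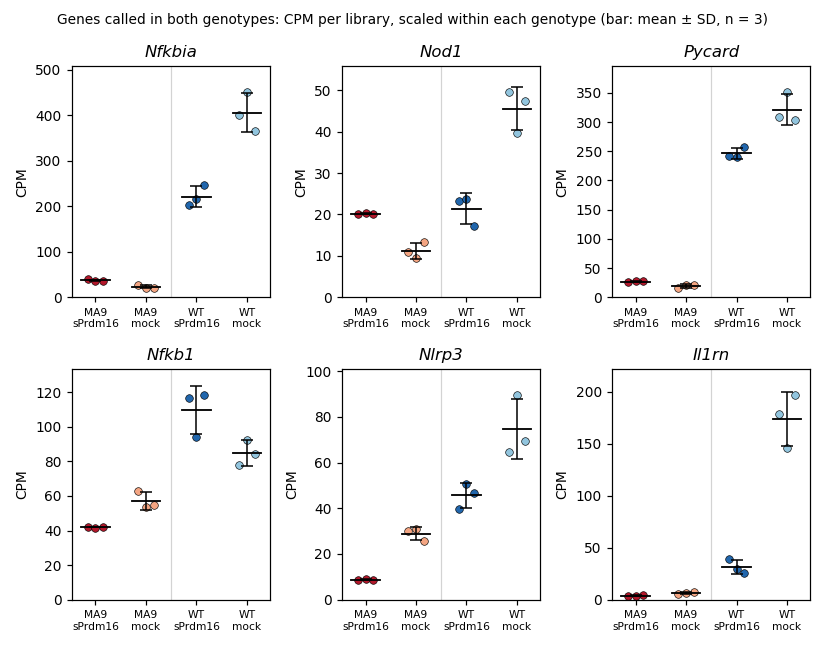
CPM in each library of the 6 genes called in both genotypes, on linear axes from 0, with the groups MA9 sPrdm16, MA9 mock, WT sPrdm16 and WT mock from left to right and bars for the mean and SD (n = 3). Values are scaled within each genotype, so levels are comparable within MA9 and within WT. Nfkbia, Nod1 and Pycard were higher with sPrdm16 in MA9 and lower in WT, Nfkb1 the other way round, and Nlrp3 and Il1rn were lower with sPrdm16 in both.

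Among the inflammasome genes, the sensor Nlrp3 fell in both genotypes while the adaptor Pycard moved in opposite directions. Nlrp3 (chr11:59541568-59566956, mm10, + strand) encodes the sensor that responds to ion efflux and crystals and that must first be induced by NF-kB. It had 8.80, 9.14 and 8.53 CPM in MA9 libraries with sPrdm16, against 30.0, 31.1 and 25.5 CPM in MA9 mock. It had 39.5, 50.7 and 46.6 CPM in WT libraries with sPrdm16, against 64.8, 89.8 and 69.4 CPM in WT mock. Neither pair of groups overlapped. Nlrp3 fell by 1.72 ± 0.11 on the log2 scale (adjusted p = 1.06e-05) in MA9 and by 0.71 ± 0.14 on the log2 scale (adjusted p = 0.00139) in WT. With total counts the MA9 value was -0.33 and no longer passed (adjusted p = 0.36).

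Pycard encodes the adaptor ASC, which joins the sensor to caspase-1. It had 26.6, 27.1 and 27.0 CPM in MA9 libraries with sPrdm16, against 15.9, 21.6 and 20.8 CPM in MA9 mock, and rose by 0.47 ± 0.12 on the log2 scale (adjusted p = 0.015). In WT it had 242, 239 and 257 CPM with sPrdm16, against 309, 351 and 303 CPM in mock, and fell by 0.38 ± 0.09 on the log2 scale (adjusted p = 0.00332). The groups were separate in both genotypes. The MA9 call ended without sPrdm16 replicate 1, 2 or 3 (adjusted p = 0.054, 0.0615 and 0.0587), and the WT call ended with total counts (0.0657). Gsdmd, whose product gasdermin D forms the pores of pyroptosis, had 32.4, 35.1 and 37.1 CPM in MA9 libraries with sPrdm16, against 24.0, 20.5 and 27.1 CPM in MA9 mock, with no overlap, and rose by 0.56 ± 0.11 on the log2 scale (adjusted p = 0.00474). WT libraries held 83.3, 79.6 and 96.7 CPM with sPrdm16, against 80.6, 91.4 and 87.9 CPM in mock, at a log2 fold change of -0.0020 ± 0.11 (SE).

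Casp1, the protease of the inflammasome, had 9.87, 12.9 and 9.68 CPM in MA9 libraries with sPrdm16, against 9.22, 13.9 and 12.2 CPM in MA9 mock. In WT it had 39.4, 35.0 and 42.6 CPM with sPrdm16, against 42.5, 39.6 and 35.8 CPM in mock. The groups overlapped in both genotypes, at log2 fold changes of -0.11 ± 0.19 in MA9 and -0.01 ± 0.14 in WT (SE). Casp4, the protease that senses lipopolysaccharide in the cytosol, was at 6.01 to 8.53 CPM in MA9 and 12.4 to 25.3 CPM in WT and did not pass in either genotype. Without WT sPrdm16 replicate 3 it passed in WT (-0.68, adjusted p = 0.047) and in the difference between genotypes (0.93, adjusted p = 0.0318).

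Nod1 and Nod2 encode cytosolic sensors of bacterial peptidoglycan that signal to NF-kB. Nod1 (chr6:54923949-54972612, mm10, - strand) had 20.2, 20.3 and 20.0 CPM in MA9 libraries with sPrdm16, against 10.8, 9.46 and 13.4 CPM in MA9 mock. It had 23.2, 23.8 and 17.2 CPM in WT libraries with sPrdm16, against 49.6, 39.6 and 47.6 CPM in WT mock. sPrdm16 libraries were all higher in MA9 and all lower in WT. Nod1 rose by 0.87 ± 0.13 on the log2 scale (adjusted p = 0.00106) in MA9 and fell by 1.09 ± 0.16 on the log2 scale (adjusted p = 0.000121) in WT. Nod2 had 2.64, 2.68 and 2.35 CPM in MA9 libraries with sPrdm16, against 0.595, 1.83 and 1.34 CPM in MA9 mock. The groups did not overlap, and the log2 fold change of 1.04 missed the threshold (adjusted p = 0.0694), though it passed without mock replicate 2 (0.0271), with no low-count filter (0.0288) and with limma-voom (0.0319). In WT it had 0.496, 1.31 and 0.831 CPM with sPrdm16, against 2.51, 1.64 and 0.514 CPM in mock, with overlap (adjusted p = 0.388).

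Of the 7 cytokines, 1 of the 3 tested in MA9 fell, and 4 of the 6 tested in WT, and none rose in either. The share called was 33.3% in MA9, against 34.6% of all genes, and 66.7% in WT, against 34.1%. Il6 (chr5:30013114-30019981, mm10, + strand), the acute-phase cytokine, had no count in any of the 6 MA9 libraries, which allows up to 3 counts each, or 0.0481 to 0.365 CPM. The same held in MA9 for Cd40, Cxcl1 and Il10. In WT, Il6 had 35.7, 26.9 and 29.3 CPM with sPrdm16, against 102, 100.3 and 118 CPM in mock. The groups were far apart, and the level with sPrdm16 was 0.287 times that in mock. Il6 fell by 1.80 ± 0.13 on the log2 scale (adjusted p = 1.14e-07) in WT.

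Il1b (chr2:129364570-129371139, mm10, - strand) encodes IL-1 beta, the main product of the inflammasome. In MA9 it had few counts, 26, 16 and 11 in the sPrdm16 libraries, against 10, 17 and 9 in the mock libraries. Scaled for depth, it had 0.608, 0.257 and 0.294 CPM with sPrdm16, against 0.595, 1.04 and 1.09 CPM in MA9 mock, with overlap. Its log2 fold change there, -1.21 ± 0.56 (SE), missed the threshold (adjusted p = 0.126) and passed in the fit over all 12 libraries (0.0318). In WT it had 14.1, 14.4 and 15.2 CPM with sPrdm16, against 29.1, 36.3 and 32.6 CPM in mock, with no overlap, and fell by 1.16 ± 0.16 on the log2 scale (adjusted p = 6.34e-05). Il1a, the IL-1 that acts without the inflammasome, had 3.33, 2.23 and 0.277 CPM in WT libraries with sPrdm16, against 6.34, 5.15 and 6.06 CPM in WT mock. Replicate 3 of WT sPrdm16 was lowest, with 5 counts. Il1a fell by 1.58 ± 0.56 on the log2 scale (adjusted p = 0.0427), and this call ended in 5 of the 6 fits that left out a library (0.0569 to 0.0929), with total counts (0.0704) and in the fit over all 12 libraries (0.0888). Without sPrdm16 replicate 1 the value was -2.22. Il1b overlaps the opposite-strand RNA Il1bos and Il1a overlaps Gm14023, with 115 and 54 counts over all libraries.

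Osm, the myeloid cytokine oncostatin M, had 2.60, 2.42 and 2.51 CPM in MA9 libraries with sPrdm16, against 2.44, 4.40 and 4.26 CPM in MA9 mock, and the groups overlapped (adjusted p = 0.169, and 0.0247 without mock replicate 1). It had 90.0, 99.0 and 97.3 CPM in WT libraries with sPrdm16, against 154, 136 and 132 CPM in WT mock, with no overlap, and fell by 0.56 ± 0.10 on the log2 scale (adjusted p = 0.000449). Tnf, which both activates NF-kB and is a target of it, had 1.75, 2.57 and 1.68 CPM in MA9 libraries with sPrdm16, against 3.87, 4.09 and 6.45 CPM in MA9 mock, with no overlap. Tnf fell by 1.22 ± 0.30 on the log2 scale (adjusted p = 0.0118) in MA9. This call ended without sPrdm16 replicate 1 (0.0606) and without sPrdm16 replicate 3 (0.0614), and with total counts the value was 0.25, below the all-gene median of 1.43. In WT Tnf had 32.5, 32.8 and 26.6 CPM with sPrdm16, against 31.7, 34.7 and 43.7 CPM in mock, and the groups overlapped (log2 fold change -0.26, adjusted p = 0.225). Il18, matured by the inflammasome as IL-1 beta is, was at 4.55 to 6.01 CPM in WT sPrdm16 and 3.94 to 7.14 CPM in WT mock and did not pass, and Il10, the anti-inflammatory cytokine, had no count in any of the 12 libraries. Il1a and Il18 were not tested in MA9. Summed over 3 libraries, Il1a had 4 counts in MA9 sPrdm16 and 0 in MA9 mock. Il18 had 20 counts in MA9 sPrdm16 and 6 in MA9 mock, but scaled for depth it averaged 0.144 and 0.183 CPM.

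**Figure D3:**
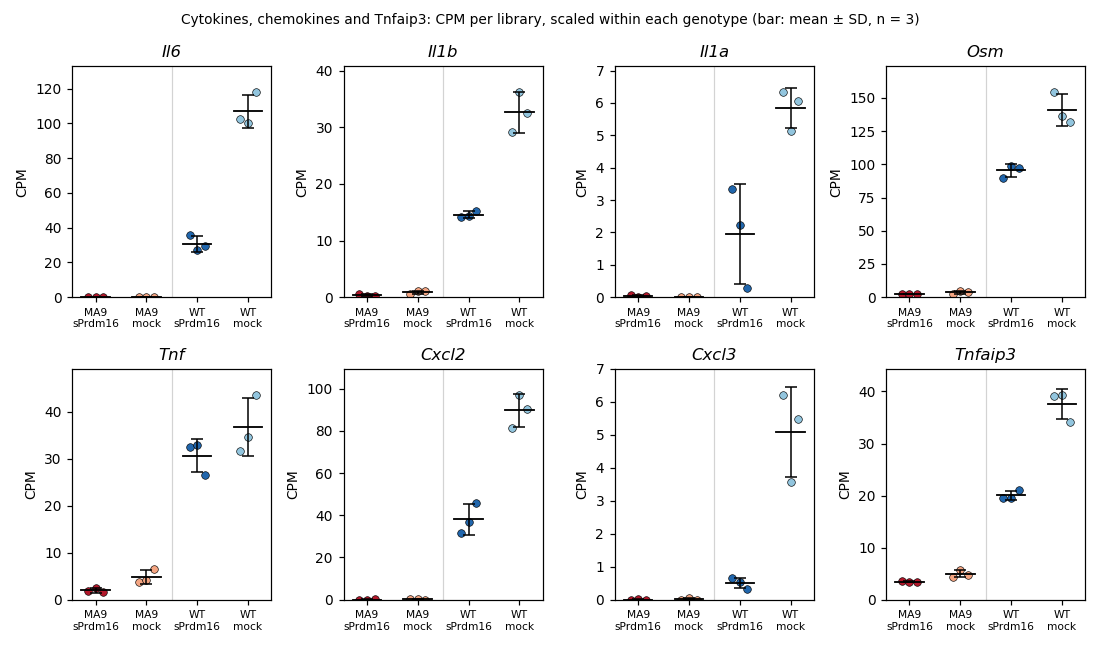
CPM in each library of 5 cytokines, 2 chemokines and Tnfaip3, on linear axes from 0, with the groups MA9 sPrdm16, MA9 mock, WT sPrdm16 and WT mock from left to right and bars for the mean and SD (n = 3), scaled within each genotype. In WT the sPrdm16 points of every panel except Tnf lie below all mock points, and in MA9 Il6 is at 0 in all 6 libraries.

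In MA9 none of the 3 chemokine genes had more than 7 counts in a library and none was tested, while both that could be tested in WT fell. Of all genes tested in WT 16.6% fell. Cxcl2 (chr5:90903871-90905938, mm10, + strand) had 31.4, 36.8 and 45.8 CPM in WT libraries with sPrdm16, against 81.6, 97.2 and 90.5 CPM in WT mock, with no overlap, and fell by 1.24 ± 0.14 on the log2 scale (adjusted p = 1.04e-05). Cxcl3 (chr5:90786103-90789600, mm10, + strand) had 13, 10 and 6 counts in WT sPrdm16, against 109, 61 and 96 counts in WT mock, and fell by 3.30 ± 0.48 on the log2 scale (adjusted p = 0.000111). The level with sPrdm16 was 0.101 times that in mock. Cxcl1 (chr5:90891241-90893115, mm10, + strand), which carries the same kB letters, had 1, 9 and 8 counts in WT sPrdm16, against 0, 10 and 8 counts in WT mock, and was not tested. These genes are close copies of one another, so reads could have been shared between them in the authors' counting. 

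The blockers of IL-1 moved apart in WT. Il1rn (chr2:24336853-24351494, mm10, + strand) encodes the antagonist that occupies the IL-1 receptor without signalling. In MA9 it had 3.56, 3.19 and 4.09 CPM with sPrdm16, against 5.06, 6.90 and 7.06 CPM in mock. It had 39.3, 29.6 and 25.4 CPM in WT libraries with sPrdm16, against 178, 146 and 197 CPM in WT mock. sPrdm16 libraries were below all mock libraries in both genotypes. Il1rn fell by 0.80 ± 0.22 on the log2 scale (adjusted p = 0.0176) in MA9 and by 2.46 ± 0.16 on the log2 scale (adjusted p = 2.34e-08) in WT, to 0.181 times the WT mock level. The MA9 call ended without mock replicate 2 (0.0538), without sPrdm16 replicate 1 (0.0763) and without sPrdm16 replicate 2 (0.095), and with total counts the value was 0.64, below the all-gene median of 1.43.

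Il1r2, the decoy receptor that binds IL-1 and does not signal, had 1.80, 1.83 and 2.14 CPM in MA9 libraries with sPrdm16, against 0.833, 2.81 and 1.58 CPM in MA9 mock, with overlap. It had 146, 155 and 156 CPM in WT libraries with sPrdm16, against 133, 134 and 116 CPM in WT mock. The WT groups did not overlap, and it rose by 0.26 ± 0.09 on the log2 scale (adjusted p = 0.0438). That call ended in 5 of the 6 fits that left out a library (0.0512 to 0.151), with nuclear protein-coding genes alone (0.0521), with no low-count filter (0.0554) and in the fit over all 12 libraries (0.19).

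Of the 6 other target genes 4 were tested in MA9, and none passed, against 34.6% of all genes. Tnfaip2, a TNF-induced gene of myeloid and endothelial cells, had 56.6, 58.5 and 60.6 CPM in MA9 libraries with sPrdm16, against 55.4, 53.9 and 78.2 CPM in MA9 mock, with overlap. Birc3, a ubiquitin ligase that blocks cell death downstream of TNF receptors, had 27.5, 27.0 and 27.3 CPM in MA9 libraries with sPrdm16, against 21.8, 27.8 and 25.7 CPM in MA9 mock, also with overlap. Traf1, a signalling adaptor, was low in MA9, at 1.17 to 1.54 CPM with sPrdm16 and 0.122 to 1.70 CPM in mock, and it passed when mock replicate 3 was left out (log2 fold change 1.96, adjusted p = 0.0189). Icam1, an adhesion receptor of leukocytes, was at 4.02 to 4.47 CPM with sPrdm16 and 3.81 to 5.92 CPM in mock. Ptx3, a soluble pattern receptor, had at most 16 counts in any library and was tested in neither genotype.

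In WT 5 of these target genes were tested: Tnfaip2 and Cd40 rose, Birc3 fell, and Traf1 and Icam1 did not pass. The share called was 60%, against 34.1% of all genes. Traf1 was at 14.5 to 18.6 CPM in WT libraries with sPrdm16 and 13.6 to 24.7 CPM in WT mock, and Icam1 had 43.3, 45.0 and 36.0 CPM in WT libraries with sPrdm16, against 45.4, 47.8 and 43.3 CPM in WT mock, both with overlap. Tnfaip2 had 587, 596 and 596 CPM in WT libraries with sPrdm16, against 447, 405 and 443 CPM in WT mock, with no overlap, and rose by 0.46 ± 0.08 on the log2 scale (adjusted p = 0.000433). Cd40, a receptor of antigen-presenting cells, had 53, 35 and 28 counts in WT sPrdm16, against 10, 0 and 3 counts in WT mock. It rose by 3.0 ± 0.85 on the log2 scale (adjusted p = 0.0135), and the call ended without mock replicate 3 (0.0503) and without sPrdm16 replicate 1 (0.0725). In the 6 fits that left out a library the value ranged from 2.43 to 4.45, the highest without mock replicate 1, which leaves 0 and 3 counts in mock, and with limma-voom it was 3.73. Birc3 had 28.8, 27.7 and 31.6 CPM in WT libraries with sPrdm16, against 35.5, 39.2 and 41.0 CPM in WT mock. The groups did not overlap, and it fell by 0.39 ± 0.14 on the log2 scale (adjusted p = 0.0381). The Birc3 call ended without mock replicate 2 (0.0792) or 3 (0.0999), without sPrdm16 replicate 1 (0.0973) or 2 (0.145), with total counts (0.234) and with no low-count filter (0.0788).

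Whether sPrdm16 acted differently in MA9 and WT was tested as the difference between its effects, MA9 minus WT, over all 12 libraries. Of the 27 genes tested in both genotypes 10 passed, which is 37.0%, against 33.5% of the 12373 genes tested in both. The difference was above 0 for 6 of them (19.7% of all genes) and below 0 for 4 (13.9%). The share was thus close to that of all genes. The largest of these were Nod1 with 2.04 ± 0.22 (SE, adjusted p = 2.55e-06), Il1rn with 1.74 ± 0.25 (adjusted p = 4.65e-05) and Nfkbia with 1.64 ± 0.16 (adjusted p = 6.94e-07). For Il1rn this means a smaller fall in MA9 than in WT. Pycard differed by 0.94 (adjusted p = 9.87e-05), Gsdmd by 0.64 (0.00649) and Birc3 by 0.60 (0.016). Below 0 were Nlrp3 with -0.92 (adjusted p = 0.00218), Nfkb1 with -0.73 (0.00155), Tnf with -0.85 (0.0488) and Tnfaip2 with -0.46 (0.0275).

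The calls of Tnf and Tnfaip2 in this comparison were the least firm. Tnf ended in 8 of the 12 fits that left out a library, with no low-count filter (0.0658), with limma-voom (0.119) and with the replicate number as a block (0.0538). Tnfaip2 ended in 7 of the 12 and with no low-count filter (0.0588). Without MA9 mock replicate 3 both ended, at -0.62 for Tnf and -0.27 for Tnfaip2 (adjusted p = 0.133 and 0.0686), and the count below 0 was 2. Among genes not called, Traf1 passed without MA9 mock replicate 3 (2.18, adjusted p = 0.00793), Nod2 without WT mock replicate 3 (2.38, 0.0226) and Rel without WT sPrdm16 replicate 1 (0.65, 0.0328). Total counts turned Nfkb1, Nlrp3, Tnf and Tnfaip2 to 0.41, 0.21, 0.34 and 0.76, below the all-gene median of 1.21. With total counts 96.0% of all calls were above 0, against 57.1%.

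Of the 27 genes, 2 were called in both genotypes in the same direction, Nlrp3 and Il1rn, against 8.11% of the 12373 genes. Another 4 were called in opposite directions, Nfkb1, Nfkbia, Pycard and Nod1, against 5.86% of the 12373 genes. With total counts Nfkb1 passed above 0 in both genotypes. MA9 and WT share no library, so these calls come from separate samples. A total of 20 of the 36 genes were called in at least 1 genotype. The matching share of all genes was not counted. Of all genes tested, 34.6% were called in MA9 and 34.1% in WT. These are shares for 1 genotype each, so the 20 of 36 cannot be set against them.

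**Figure D4:**
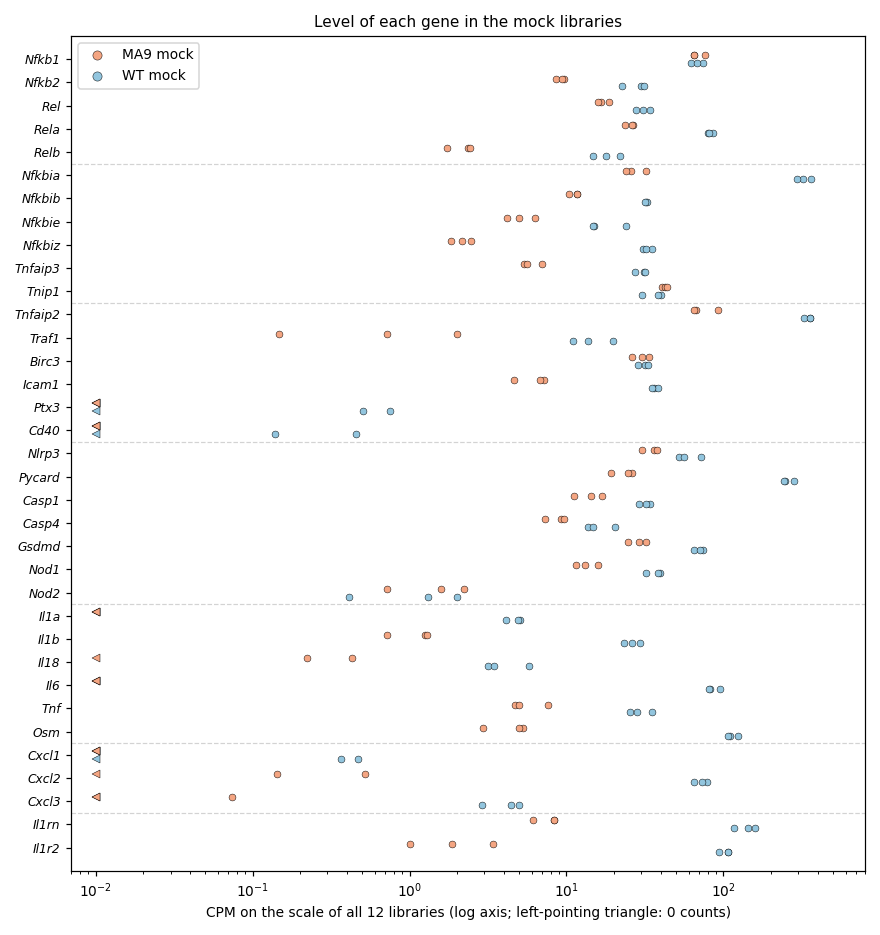
Level of each gene in the MA9 mock and WT mock libraries, in CPM on the scale of all 12 libraries (log axis), in order of role with dashed lines between roles. Each point is a library, triangles at the left edge stand for 0 counts, and Il10 is left out because it had no count. Cxcl2, Il6, Il1r2, Osm and Il1rn lie far to the right in WT mock, while Nfkb1, Birc3 and Nod2 overlap.

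In the mock libraries most of these genes were lower in MA9 than in WT. Genotype and deposited table coincide, so the difference cannot be told apart from one between the tables and was not tested. On the scale of all 12 libraries, 28 of 34 genes had all MA9 mock libraries below the lowest WT mock library, and 1, Tnip1, had all of them above the highest. Of all 16194 genes 37.9% were lower in this way and 34.4% higher. Il6, Il1a, Il18, Cxcl2 and Cxcl3 are among the 28 and had too few counts in MA9 to be tested. They entered this comparison through the WT libraries, so their lower level in MA9 was set by the low-count filter. With total counts 31 were lower and 0 higher. The share of all genes was not counted on that scale, so these 2 counts cannot be read as a trait of the list. Nuclear protein-coding genes held 28.2% of all counts in MA9 mock and 92.5% in WT mock. Cxcl2 averaged 0.220 ± 0.267 CPM in MA9 mock and 72.2 ± 6.56 CPM in WT mock (SD, n = 3 each), and Il1r2 averaged 2.09 ± 1.21 CPM in MA9 mock and 102 ± 8.08 CPM in WT mock. Nfkb1 averaged 68.6 ± 6.51 CPM in MA9 mock and 68.3 ± 6.13 CPM in WT mock, which overlapped. Per kb of transcript the leading genes in MA9 mock were Tnfaip2 with 19.9 ± 4.0 CPM per kb, Nfkbia with 17.4 ± 2.75, Nfkb1 with 16.7 ± 1.58 and Gsdmd with 16.0 ± 2.03, which lay within their spread. In WT mock they were Nfkbia with 207 ± 22.2 CPM per kb, then Tnfaip2 with 92.3 ± 4.74, Il1r2 with 72.2 ± 5.70 and Pycard with 67.9 ± 5.74, of which Il1r2 and Pycard lay within their spread.

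The rest of the pathway was read from 5 further lists, and the genes named from each are the called ones with the smallest p-values, not the largest effects. Of 32 genes of the IKK complex and its adaptors tested in MA9, 7 rose and 6 fell (40.6%, against 34.6% of all genes), and of 33 tested in WT 3 rose and 5 fell (24.2%, against 34.1%). The smallest p-values in MA9 belonged to Card9, the adaptor of fungal receptors, which fell by 0.54, Map3k8, a kinase upstream of ERK, which fell by 2.20, Malt1, the protease of the CARD complex, which fell by 0.72, and Irak3, an inhibitor of receptor kinases, which fell by 0.67. In WT they belonged to Irak3, which fell by 1.48, Rbck1, of the linear ubiquitin ligase, which rose by 0.68, Map3k8, which fell by 1.10, and Tab2, an adaptor of the kinase TAK1, which fell by 0.57. The effect differed between the genotypes for 13 of 32 (40.6%, against 33.5% of all genes), with the smallest p for Card9 (-0.89), Tab2 (0.80), Tradd (1.02) and Tollip (0.84), on the log2 scale. With total counts Card9, Malt1 and Irak3 lay above 0 in MA9, at 0.87, 0.67 and 0.73, and Card9 lay above 0 in the difference, at 0.25, all below the all-gene medians of 1.43 and 1.21.

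Of 20 other negative regulators tested in MA9, 2 rose and 4 fell (30.0%, against 34.6% of all genes), and of 21 tested in WT 3 rose and 5 fell (38.1%, against 34.1%). In MA9 Tax1bp1, a partner of the Tnfaip3 product, rose by 0.44, and Bcl3, a nuclear IkB protein, rose by 1.91. Zfp36, which destroys cytokine mRNAs, fell by 0.83, and Tnip3 fell by 3.45, from few counts (2 to 17 with sPrdm16, 16 to 29 in mock). In WT Rnf11 fell by 0.94, the phosphatase gene Dusp1 by 0.67 and N4bp1 by 0.59, while Socs3, an inhibitor of cytokine receptors, rose by 0.67. With total counts Zfp36 lay above 0 in MA9, at 0.63, below the all-gene median of 1.43. For 8 of 20 the effect differed between the genotypes (40.0%, against 33.5% of all genes), with the smallest p for Tnip3 (-3.51), N4bp1 (0.90), Rnf11 (1.01) and Socs3 (-1.52).

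Of 16 cytokine receptor genes tested in MA9, 3 rose and 5 fell (50%, against 34.6% of all genes), and of 18 tested in WT 1 rose and 6 fell (38.9%, against 34.1%). In MA9 Il6st, the signalling chain shared by IL-6 and oncostatin M, fell by 1.80, the receptor Il17ra by 1.06 and Il10ra by 2.43, while the TNF receptor Tnfrsf1a rose by 1.03. In WT Il1rl1, the IL-33 receptor of mast cells, fell by 3.31, Cxcr2, the neutrophil receptor for the Cxcl1 to Cxcl3 chemokines, by 2.41, and the IL-18 receptor chains Il18rap and Il18r1 by 1.52 and 1.77. Cxcr2 is also 1 of the 12 neutrophil markers. With total counts Il17ra lay above 0 in MA9, at 0.34, below the all-gene median of 1.43. In the difference between the genotypes 10 of 16 passed (62.5%, against 33.5% of all genes), with the smallest p for Il18rap (1.82), Il10ra (-2.12), Tnfrsf1a (1.28) and Il6st (-1.43).

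Of 19 other inflammasome genes tested in MA9, 5 rose and 5 fell (52.6%, against 34.6% of all genes), and of 21 tested in WT 3 rose and 6 fell (42.9%, against 34.1%). In MA9 Card6 fell by 2.41, while the flagellin-pathway sensor Nlrc4 rose by 0.55, Nlrc5, which drives MHC class I genes, by 1.89, and Ninj1, which ruptures dying cells, by 1.08. In WT Ninj1 rose by 0.69 and Txnip by 0.36, while Nek7, a kinase that Nlrp3 needs, fell by 0.68 and Naip5, the flagellin receptor, by 0.79. In the difference between the genotypes 3 of 19 passed (15.8%, against 33.5% of all genes), namely Nlrp12 (2.69), Aim2 (0.56) and Nek7 (0.51).

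Of 40 further NF-kB targets tested in MA9, 5 rose and 18 fell (57.5%, against 34.6% of all genes, of which 17.1% rose and 17.5% fell), with a median log2 fold change of -0.50, against 0.03 over all genes. Of 49 tested in WT 8 rose and 21 fell (59.2%, against 34.1% of all genes, of which 17.5% rose and 16.6% fell), with a median of -0.20, against 0.01. With total counts 10 of the 18 that fell in MA9 lay above 0, Bcl2l1 among them at 0.38, and the all-gene median at 1.43. In MA9 Ehd1 rose by 1.47 and Marcks by 1.28, while the costimulatory ligand Cd86 fell by 3.98 and the survival gene Bcl2l1 by 1.04. In WT the siderophore-binding Lcn2 fell by 2.14, the acute-phase gene Saa3 by 3.0 and the chemokine gene Ccl3 by 1.52, while Myc rose by 1.59. Lcn2 is known from the granules of neutrophils, of whose 12 markers 9 fell and 2 rose in the same contrast. For 23 of 40 the effect differed between the genotypes (57.5%, against 33.5% of all genes), with the smallest p for Lcn2 (3.34), Ccl2, Cd86 (-3.96) and Myc (-1.40), and Ccl2 had 0, 0 and 1 counts in MA9 sPrdm16, against 40, 19 and 24 counts in MA9 mock.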

How the data were processed

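RNA-seq was read from 12 libraries in 4 groups of 3. For each genotype the authors deposited a table of unscaled expected counts, that is estimated counts which may be fractional. Per the submitters' processing notes DRAGEN (version not named) and mm10 were used. Per the labels' protocols, total RNA was extracted with RNeasy columns and made into Nextera XT libraries. Whether strand was recorded is not given in the sources used here. Between 5.19% and 10.2% of the values of a library were not whole, and values were rounded. All columns were used.

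Differences were tested in edgeR 4.0.16 under R 4.3.3 (TMM scaling, default low-count filter with a minimum count of 10, robust quasi-likelihood F test, Benjamini-Hochberg adjustment over all genes tested, threshold 0.05). MA9 and WT were fitted on 6 libraries each, and the difference of effects on all 12. Errors of log2 fold changes are SEs, those of levels SDs over 3 libraries. A count of 0 allows 3 counts, which covers counting error alone. Whether replicates are separate cultures or animals is not in the labels, so the spread behind a p-value may be technical. No 2 libraries of a group agreed within sampling noise (chi-square per gene at least 3.50). Values per kb used the longest coding transcript in GENCODE M21, and promoter windows came from RefSeq. The test was tried on simulated counts first.

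Every gene of the list is accounted for. Genes called in any of the 3 fits, with 14 chosen as best known, are described by library, the rest by range. Of each further list the 4 called genes with the smallest p per fit are named. The members and lists were chosen with earlier results of these data known. Alternatives were RLE scaling, total counts, nuclear protein-coding genes alone, no filter, 5 CPM in 3 libraries, DESeq2 1.42.0, limma-voom (limma 3.58.1), the replicate number as a block, 1 fit over all 12 libraries and each library left out.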

Additional observations from a re-analysis of the deposited data

Results flagged for a closer look

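For 10 of the 27 genes tested in both genotypes the effect of sPrdm16 in MA9 differed from that in WT. This is 37.0%, close to the 33.5% of all 12373 genes tested in both. The difference between the effects was tested on the log2 scale as MA9 minus WT (edgeR, adjusted p). It was above 0 for Nod1 (2.04, adjusted p = 2.55e-06), Il1rn (1.74, 4.65e-05), Nfkbia (1.64, 6.94e-07), Pycard (0.94, 9.87e-05), Gsdmd (0.64, 0.00649) and Birc3 (0.60, 0.016). It was below 0 for Nlrp3 (-0.92, 0.00218), Tnf (-0.85, 0.0488), Nfkb1 (-0.73, 0.00155) and Tnfaip2 (-0.46, 0.0275). The share of counts on nuclear protein-coding genes was 75.5% in MA9 sPrdm16 and 28.2% in MA9 mock, against 93.9% in WT sPrdm16 and 92.5% in WT mock, and the part of this in the differences was not tested.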

How the results depend on the processing

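With RLE scaling, nuclear protein-coding genes alone, a filter of 5 CPM, DESeq2, limma-voom and 1 fit over all 12 libraries, no gene of the list changed direction among those called, and the counts of called members stayed within 1.5 times those reported. With total counts, 19 members passed above 0 and 0 below in MA9 (12096 of all genes), and 7 above 0 and 11 below in WT (5169). For the difference between genotypes 21 passed above 0 and 0 below (8518 of all genes). Of 27 members 13 turned sign with total counts in MA9: Nfkb1 0.95, Nfkb2 0.89, Nfkbie 1.0, Tnfaip2 1.39, Icam1 1.15, Casp1 1.31, Tnf 0.25 and Il1rn 0.64, which passed there or had been called, and Relb 0.97, Nfkbiz 0.74, Tnfaip3 0.87, Il1b 0.23 and Osm 0.91. All lay below the all-gene median of 1.43. For the difference 12 of 27 did, all below the median of 1.21. Nfkbib 1.01, Tnip1 1.10, Tnfaip2 0.76, Icam1 1.11, Casp1 1.15 and Il1r2 1.10 passed above 0 there. Nfkb1 0.41, Nlrp3 0.21 and Tnf 0.34 had been called and did not pass. Nfkb2 0.61, Relb 0.55 and Nfkbie 0.43 did not pass either. In WT Traf1, Icam1, Casp1 and Gsdmd, none of them called, moved from below to above 0 (0.03 to 0.17). With no low-count filter 2 members passed below 0 for the difference. Leaving out 1 library gave 3 to 5 members above 0, 2 to 6 below and 3306 to 6485 of all genes in MA9, 1 to 4, 12 to 14 and 3606 to 4526 in WT, and 6 to 7, 2 to 4 and 3649 to 4673 for the difference. The cause of these changes was not tested. Deviations of same-numbered libraries had correlations of -0.05 to 0.05, and those of differently numbered ones -0.05 to 0.08. With 3 libraries per group this cannot decide whether the numbers pair the samples. With the replicate number as a block, 4 members rose and 4 fell in MA9 (4191 of all genes), 4 rose and 14 fell in WT (4631), and 6 were above and 3 below 0 for the difference (4317), where Tnf did not pass (-0.87). Depth limits MA9 mock above all, where 3844571 to 7406093 counts fell on nuclear protein-coding genes, and 9 members had too few counts in MA9 to be tested.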
